A study of Drosophila melanogaster with 2 samples.

Results

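Whether a cell of the wing disc leaves G1 and starts DNA synthesis is set by a small group of regulators, and the transcripts of 9 genes of that group were compared between discs with and without extra Taiman (Tai), a coactivator of the ecdysone receptor. The genes are the G1 cyclins CycD and CycE, their kinases Cdk4 and cdc2c (Cdk2), the kinase inhibitor dap (Dacapo), the E2F factors E2f (E2f1) and E2f2, their partner Dp and the retinoblastoma gene Rbf. They were chosen by name from their textbook roles, and all 9 were found among the 13989 genes of the table.

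The series holds wing discs of wandering third-instar Drosophila melanogaster larvae, with 1 sample per genotype, called a library below. In the control, en>GFP (called GFP), the engrailed driver controlled green fluorescent protein. The other genotype, en>GFP,Tai (GFP_Tai), expressed Tai in addition, so both carried the driver and GFP. The driver is active in the posterior compartment, whereas RNA came from whole discs, 80 to 100 pooled per sample. Each value therefore averages over cells with and without the driver. The series design speaks of triplicates, but the table gives 1 value per gene and genotype. Whether that value merges several libraries could not be told here. No difference below has a replicate check, and the only test of the genotypes is the authors' own.

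In background terms, CycD with Cdk4 and CycE with Cdk2 phosphorylate Rbf, which otherwise holds E2F factors in check on their target promoters. E2f1 with Dp activates genes of DNA replication, and E2f2 with Dp acts mainly as a repressor. Dap binds and inhibits CycE-Cdk2, and in flies CycD-Cdk4 is also known for promoting growth. In the late larval disc, cells along the future wing margin leave the cycle earlier than their neighbours.

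The level of each transcript is given as FPKM, fragments scaled to transcript length and to library size. Depth, estimated from the steps of low values, was about 7800000 fragments in GFP and 10192082 in GFP_Tai. The tai gene, at 27.1 FPKM in GFP, reached 879 in GFP_Tai (32.4 times as much, 95% counting interval 30.9 to 34.0). Counting intervals here rest on these estimated fragments and cover counting error only. Of 5 wing disc genes (vg, nub, ap, sd and rn), all 5 were measured and had lower values in GFP_Tai (3 of 5 when scaled to ribosomal protein genes), with a sum of 365 and 331 FPKM in GFP and GFP_Tai. The haltere selector gene Ubx was also present in both, at 66.0 and 74.8 FPKM. Markers of other tissues had summed FPKM of 76.4 and 70.6 for 5 myoblast genes, 34.5 and 31.1 for 3 tracheal genes, 24.6 and 31.0 for 4 blood cell genes, 16.6 and 24.8 for 4 fat body genes, and 9.54 and 8.19 for 3 neuronal genes. The 4 salivary glue genes had 0.461 and 11.5, with Sgs7 and Sgs8 listed at 0 in GFP. All 3 gut protease genes were listed at 0 in GFP and together had 208 in GFP_Tai. The part of these tissues in the results below was not tested. Fewer cells of a type and less RNA per cell cannot be told apart in such pools.

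All 9 G1/S genes were well expressed in both libraries, and their values stayed close together between the genotypes. The kinase gene cdc2c and the brake gene Rbf had the largest differences, both lower in GFP_Tai, and E2f and CycD were the genes with higher values. None of the 9 was 2-fold different on the log2(FPKM + 1) scale. Of the 8275 genes that reached an FPKM of 1 in 1 or both libraries, 6.31% were 2-fold or more higher and 1.81% 2-fold or more lower. Of the 9, 7 had a lower value in GFP_Tai. Scaled to ribosomal protein genes, 6 did, with E2f2 turned to 0.02, beside 43.0% of the genes that then reached 1 FPKM. As scaled by the authors, 53.8% of the 8275 genes (the genes kept) did, and 60.1% of those in the members' range of mean FPKM. The median log2 difference of the 9 was -0.11, beside -0.02 for all genes kept and -0.06 for the 3355 genes in that range, 25.1 to 130 FPKM. At 1.2-fold, 2 of the 9 were lower (cdc2c and Rbf) and 0 higher, beside 17.1% lower and 19.2% higher among all genes kept.

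**Figure D1:**
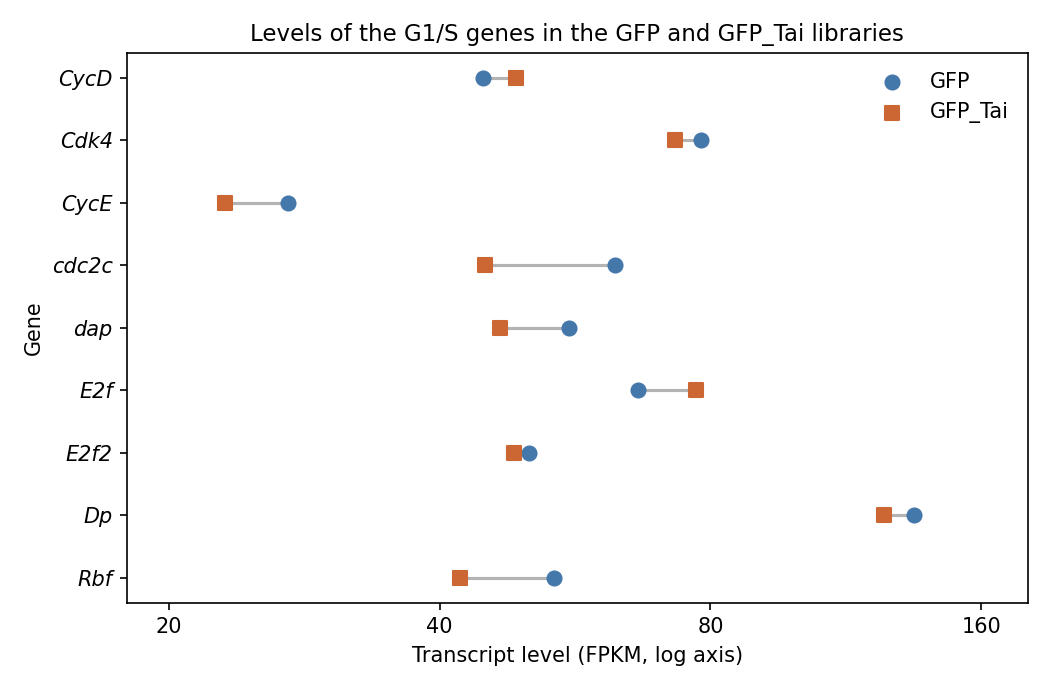
Transcript level of each G1/S gene on a log axis of FPKM, with a circle for the GFP library and a square for the GFP_Tai library, 1 value each. The 9 genes lie between 23.1 and 135 FPKM, and CycD and E2f have the square to the right of the circle.

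The D-type pair, which acts first in G1, differed little. The cyclin gene CycD (FBgn0010315, chromosome X, 15906822 to 15909676, minus strand, positions here and below in BDGP6) had 44.7 FPKM in GFP and 48.6 in GFP_Tai. The ratio of GFP_Tai to GFP was 1.09, with a 95% counting interval of 0.987 to 1.197. Its interval included equal values, as did that of its kinase partner. The kinase gene Cdk4 (FBgn0016131, chromosome 2R, 16579470 to 16585448, plus strand) had 78.2 and 73.0 FPKM in GFP and GFP_Tai, a ratio of 0.934 (0.852 to 1.02). The annotation gives CycD 3 transcripts from 1 start and Cdk4 5 transcripts from 5 starts, and the table holds only their gene-level sums.

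CycE and its kinase gene, whose products trigger S phase, and dap, whose product inhibits them, had lower values in GFP_Tai. The cyclin gene CycE (FBgn0010382, chromosome 2L, 15727581 to 15748150, minus strand) had the lowest level of the 9, with 27.2 and 23.1 FPKM in GFP and GFP_Tai. The ratio for CycE was 0.849 (0.768 to 0.939). Its kinase gene cdc2c (FBgn0004107, Cdk2 in the annotation, chromosome 3R, 20735623 to 20738414, plus strand) had 62.6 and 44.9 FPKM. That ratio, 0.718 (0.631 to 0.816), was the lowest of the 9, and 4.02% of the 3355 genes in the members' range of levels had a lower log2 difference. The inhibitor gene dap (FBgn0010316, chromosome 2R, 9712321 to 9716256, plus strand) had 55.7 and 46.6 FPKM, a ratio of 0.837 (0.768 to 0.912). The interval lay below 1 for each of these 3 genes, as it did for 31.6% of the genes in the members' range of levels.

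The cdc2c value carries a limit, because 1010 of its 2299 annotated exon bases are shared with CG17267 on the opposite strand. The strand setting of the authors' counting is not given in the sources used here, so fragments of this overlap cannot be told apart. CG17267 had 14.2 and 12.0 FPKM in GFP and GFP_Tai. Its part in the cdc2c difference was not tested. Fewer exon bases were shared with opposite-strand genes for E2f2 (399 of 2002), E2f (283 of 6451), Cdk4 (166 of 2462), CycE (98 and 150 of 5047) and Dp (27 of 3198). By contrast, dap, CycD and Rbf share their span with no other annotated gene.

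Of the E2F genes, E2f had a higher value in GFP_Tai, and E2f2 had close to equal values. The activator gene E2f (FBgn0011766, E2f1 in the annotation, chromosome 3R, 21620304 to 21660871, minus strand) had 66.4 FPKM in GFP and 77.1 in GFP_Tai. With a ratio of 1.16 and a 95% counting interval of 1.10 to 1.23, it was the only one of the 9 whose interval lay above 1 as scaled by the authors. Of the 3355 genes in the members' range of levels, 85.1% had a lower log2 difference. The repressor gene E2f2 (FBgn0024371, chromosome 2L, 21154293 to 21156749, minus strand) had 50.3 and 48.4 FPKM, a ratio of 0.964 (0.866 to 1.07). That interval included 1, and the log2 difference of E2f2, -0.05, turned to 0.02 when scaled to ribosomal protein genes. E2f2 shares 399 of its 2002 exon bases with Mpp6 on the opposite strand, at 17.3 and 16.7 FPKM.

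The E2f gene is also the host of the microRNA genes mir-11 and mir-998, and cdc2c is the host of mir-995. All 3 lie on their host's strand and share 0 bases with its exons, so they are intronic. In flies, mir-11 is known to limit the death genes that E2f1 can activate. The microRNA levels were not analysed here.

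Both partners of the E2F factors were lower in GFP_Tai. Dp (FBgn0011763, chromosome 2R, 13222433 to 13228202, plus strand), the shared DNA-binding partner, had the highest level of the 9, with 135 and 125 FPKM in GFP and GFP_Tai. Its ratio was 0.925 (0.876 to 0.977), a small difference with an interval below 1 as scaled by the authors. Rbf (FBgn0015799, chromosome X, 797090 to 801479, minus strand), the retinoblastoma family brake on E2F, had 53.6 and 42.1 FPKM. The ratio of Rbf was 0.786, with a 95% counting interval of 0.730 to 0.845, the second lowest of the 9. In the members' range of levels, 40% of genes had a lower log2 difference than Dp, and 9.36% had a lower one than Rbf.

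The counting interval lay below 1 for 5 of the 9 genes (CycE, cdc2c, dap, Dp and Rbf) and above 1 for 1 (E2f), and it included 1 for CycD, Cdk4 and E2f2. Among 8079 genes with an interval, 24.5% lay below 1 and 21.6% above. In the members' range of levels these shares were 31.6% and 20.8%. Such intervals hold no spread between discs or libraries, and they were computed only for the values as scaled by the authors. The authors' deposited table called none of the 9 and 0.131% of the 8374 genes it tested. In the authors' deposited table the smallest p of the 9 was 0.6671 for Rbf and the largest 0.9593 for E2f2, with a q of 0.999524 for each.

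**Figure D2:**
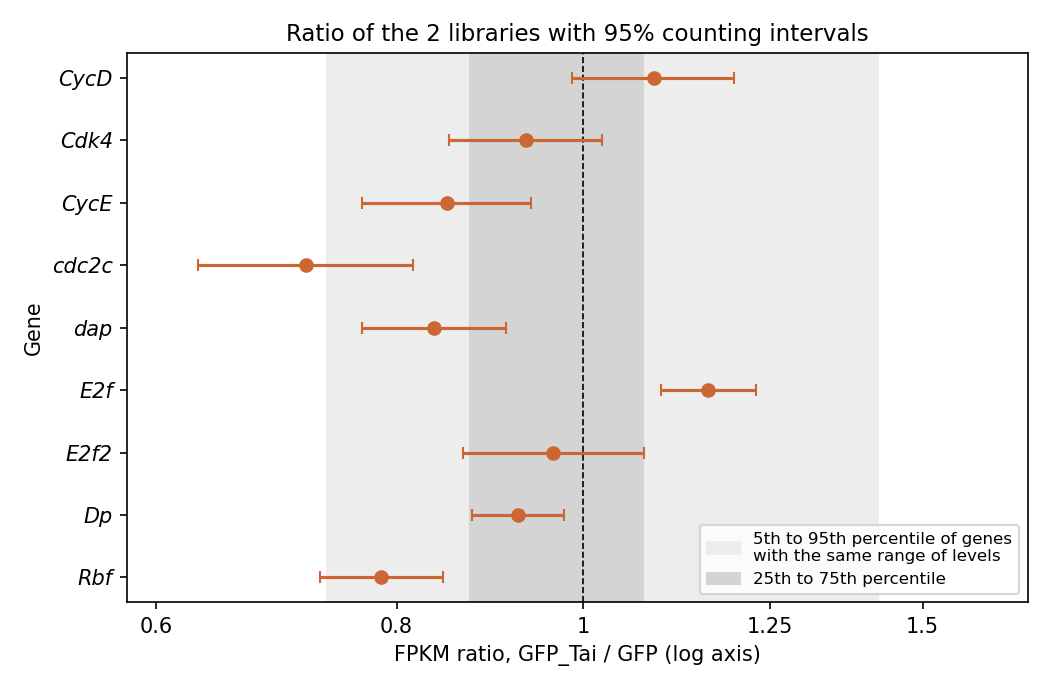
FPKM ratio of GFP_Tai to GFP for each G1/S gene on a log axis, with exact 95% counting intervals as bars. Shading marks the 5th to 95th (0.736 to 1.42) and 25th to 75th (0.874 to 1.07) percentiles. These rest on log2 differences of FPKM + 1 of the 3355 genes in the same range of mean FPKM, whereas points are plain ratios. The only point outside the wider band is cdc2c at 0.718.

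The order of levels was similar in both libraries at its ends. Dp was highest and CycE lowest in each, with a 4.96-fold range of FPKM in GFP and 5.40-fold in GFP_Tai. In GFP the order from the top was Dp, Cdk4, E2f, cdc2c, dap, Rbf, E2f2, CycD and CycE. Among neighbours in that order, E2f and cdc2c, dap and Rbf, and Rbf and E2f2 did not differ beyond counting error. In GFP_Tai the order was Dp, E2f, Cdk4, CycD, E2f2, dap, cdc2c, Rbf and CycE. There, E2f and Cdk4 did not differ beyond counting error, and neither did any neighbours from CycD to Rbf. The members stood above 46.8% to 90.2% of the genes kept in either library.

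Because FPKM is a level per length, partners can be set against each other within a library. For each E2F transcript there was less Rbf transcript in GFP_Tai: the ratio of Rbf to the sum of E2f and E2f2 was 0.460 in GFP and 0.336 in GFP_Tai. The change was 0.730, with a 95% counting interval of 0.667 to 0.7999, the largest of the 6 partner ratios compared. The ratio of Dp to the same sum was 1.16 and 0.993, a change of 0.860 (0.796 to 0.929). The activator E2f over the repressor E2f2 was 1.32 in GFP and 1.59 in GFP_Tai, a change of 1.204 (1.07 to 1.36).

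Among the cyclins, CycD over Cdk4 was 0.572 in GFP and 0.666 in GFP_Tai, a change of 1.16 (1.02 to 1.33). CycE over cdc2c was 0.434 and 0.514, a change of 1.18 (1.01 to 1.39), since the kinase gene differed more than the cyclin gene. CycE over its inhibitor gene dap was 0.487 and 0.495, and the change of 1.02 (0.891 to 1.16) included no difference. These intervals, computed on the log scale from the fragments of each gene, cover counting error only.

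**Figure D3:**
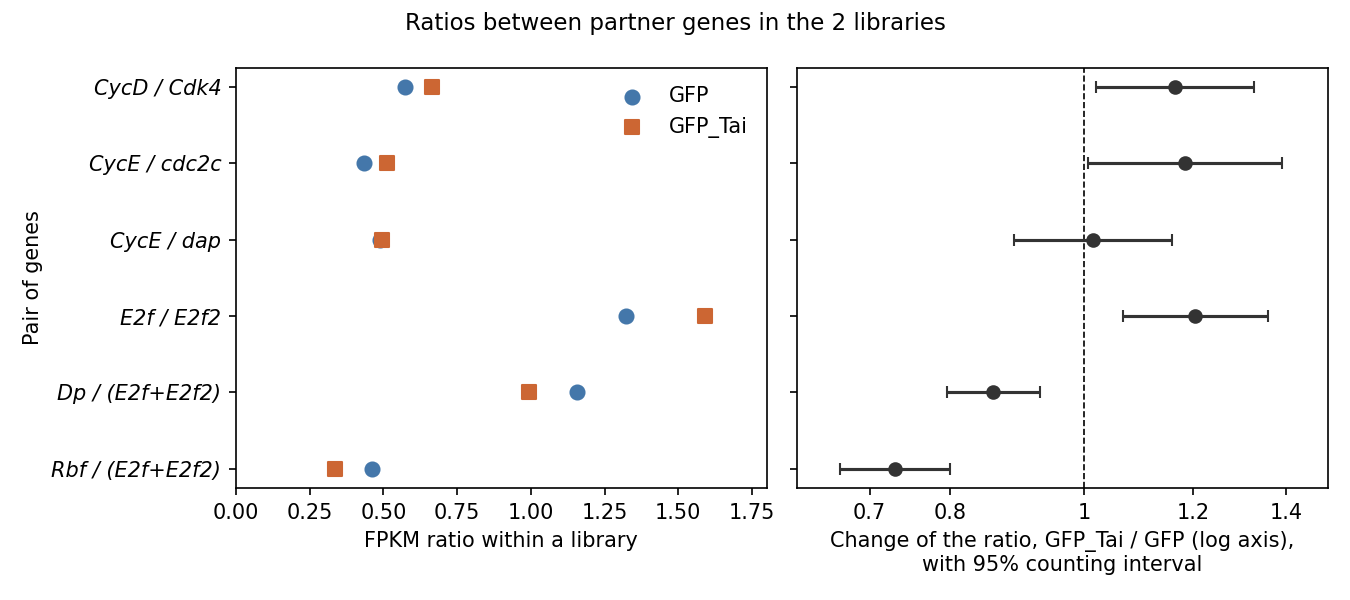
Left, FPKM ratios between partner genes within the GFP library (circles) and the GFP_Tai library (squares). Right, the change of each ratio from GFP to GFP_Tai on a log axis with its 95% counting interval; Rbf over the summed E2F genes changed most, from 0.460 to 0.336.

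The genes around these regulators were then compared by lists. Nearly every replication gene of the E2F programme had a lower value in GFP_Tai. Of 23, 22 had a difference below 0, and 20 were 1.2-fold or more lower, but 0 reached 2-fold. Among all genes kept, 53.8% were below 0 and 17.1% were 1.2-fold or more lower. Their median log2 difference was -0.44, beside -0.11 for the G1/S genes. The helicase gene Mcm3 had 75.7 and 47.6 FPKM in GFP and GFP_Tai, and Mcm7 had 100.3 and 66.2. RnrS, which encodes a subunit of ribonucleotide reductase, had 176 and 110 FPKM. Among the 9 G1/S genes only cdc2c, at -0.47, had a log2 difference below that median. That replication genes were lower in GFP_Tai was known from earlier results of these data, so this list is not independent evidence. The wing disc genes moved the same way, with log2 differences from -0.43 for rn to -0.03 for vg (above 0 for vg and sd when scaled to ribosomal protein genes), and their part in it was not tested.

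Genes that act with Rbf and E2F in the MMB/dREAM complex were all lower in GFP_Tai (8 of 8 below 0, 7 when scaled to ribosomal protein genes, where Myb turned). Their median log2 difference was -0.18, and 3 were 1.2-fold or more lower. Among all genes kept, 53.8% were below 0 (43.0% when scaled to ribosomal protein genes) and 17.1% were 1.2-fold or more lower. The counting interval lay below 1 for 5 of the 8, beside 24.5% of all genes with an interval. The second retinoblastoma gene, Rbf2, had 17.3 and 12.6 FPKM in GFP and GFP_Tai, a ratio with a 95% counting interval of 0.623 to 0.852. The histone-binding subunit gene Caf1 had 214 and 161 FPKM, and mip120 had 28.2 and 22.6. The activating subunit gene Myb was nearly level, with 96.2 and 92.9 FPKM.

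Another list held 11 other G1/S regulators, mostly genes of the ubiquitin ligases that turn over CycE, E2f1 and Dap. Of these 11, 2 were lower by 1.2-fold or more and 0 higher by as much, beside 17.1% lower and 19.2% higher among all genes kept. The median log2 difference of the 11 was -0.06, or 0.01 when scaled to ribosomal protein genes. The 2 were Rbf2, which the MMB/dREAM list also holds, and l(2)dtl, the Cdt2 gene of the ligase that destroys E2f1 in S phase, with 20.5 and 15.5 FPKM. The ligase core gene skpA had 429 and 452 FPKM, an interval of 0.999 to 1.11 for the ratio. Of 13 G2/M cyclin and Cdk genes, 1 was at least 1.2-fold lower, the APC activator gene fzy with 102 and 76.8 FPKM, and the median log2 difference was -0.13 (2 were lower by as much when scaled to protein-coding genes). The G2/M kinase gene cdc2 had 181 and 170 FPKM, and the mitotic kinase gene polo had 221 and 189.

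The other cyclin and Cdk genes lay near equal values. Of 14, 0 reached 1.2-fold in either direction, 8 had a lower value in GFP_Tai, and the median log2 difference was -0.04. Among all genes kept, 17.1% were lower and 19.2% higher by 1.2-fold or more as scaled by the authors. When scaled to ribosomal protein genes, 1 was 1.2-fold or more higher and the median was 0.03. Eip63E, an ecdysone-induced Cdk, had 29.6 and 35.0 FPKM in GFP and GFP_Tai, with an interval of 1.07 to 1.30 for the ratio. The kinase gene Pitslre had 84.3 and 95.3, and CycC, with the lowest log2 difference of the list, had 42.4 and 37.3. Growth regulators that feed into the G1 cyclins also stayed within 1.2-fold (0 of 10 past it, median log2 difference -0.12). Of these 10, 8 had a lower value in GFP_Tai, beside 53.8% of all genes kept. When scaled to ribosomal protein genes, 7 did, beside 43.0%. The largest difference was that of brat, with 95.7 and 82.1 FPKM in GFP and GFP_Tai. The Myc gene dm had 61.3 and 70.0 FPKM, an interval of 1.09 to 1.197, the Hippo effector gene yki had 71.5 and 77.9, and Dref had 74.5 and 64.5.

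**Figure D4:**
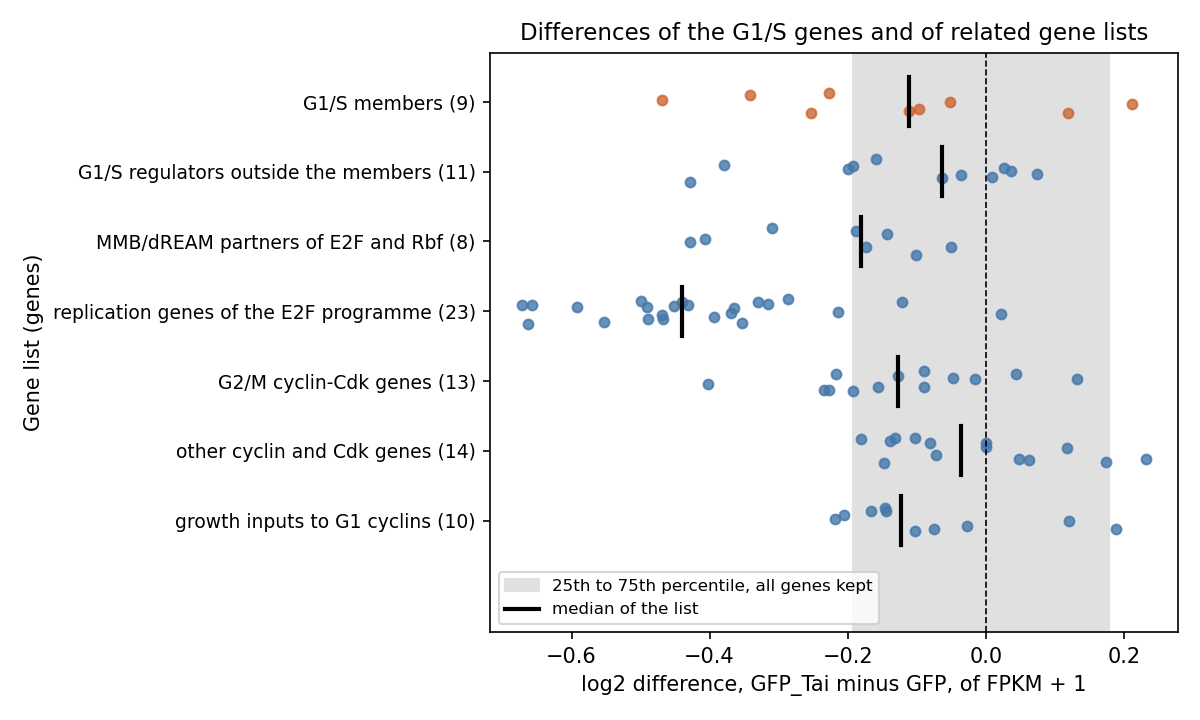
Log2 difference of FPKM + 1, GFP_Tai minus GFP, for the 9 G1/S genes and the kept genes of 6 related lists, 1 point per gene (points spread vertically at random) with a bar at each median. Shading spans the 25th to 75th percentile of all genes kept (-0.19 to 0.18); the median of the replication genes, -0.44, lies to its left, and the medians of the other lists lie within it.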

How the data were processed

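RNA of pooled wing discs was sequenced by the authors (4 µg of total RNA, ribosomal RNA removed, per the labels' protocols). The series holds 1 sample per genotype. Per the submitters' processing notes, CASAVA 1.4, TopHat2 2.0.12, Cuffdiff 2.2.1 and build dm6 were named without a role. The deposited table holds 1 FPKM value per gene and genotype, scaled by the authors, and, per the file headers, the authors' p-value and q-value. The annotation and filters behind it are not given in those notes. Gene positions in the table were offset from dm6 on some chromosome arms (by 4112493 bases for dap on 2R, but 0 for E2f2 on 2L). Coordinates therefore come from the BDGP6 annotation (Ensembl release 115), matched by symbol or synonym for 13714 of 13989 genes.

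Differences are log2((GFP_Tai FPKM + 1) / (GFP FPKM + 1)), which understates low genes, over the 8275 genes that reached 1 FPKM in 1 or both libraries. Ratios are plain FPKM ratios. The low values of 304 genes shared a ratio of 0.7653, taken as equal fragments. With 195 nt taken off transcript lengths, 62.7% and 61.7% of low single-transcript genes came out whole within 0.1 in GFP and GFP_Tai. Without fitting, 20% would by chance. The depth and the 195 nt were chosen to maximise such whole values in 177 single-transcript genes, so these shares are no independent check. Fragments are therefore estimates. They use the median annotated transcript length and serve exact binomial intervals (scipy 1.17.1). On simulated data the depth estimate was checked, and the interval formula was checked with the true counts only. Intervals from estimated fragments were not tested. Members and lists were chosen with earlier results of these data known. From the lists, up to 4 genes with the largest difference and 2 with the highest level could be named, and cell type markers, overlapping genes and host microRNA genes are named beside them. Promoter and protein sequences were not analysed here.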

Additional observations from a re-analysis of the deposited data

How the results depend on the processing

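The 23 results were recomputed under alternatives that gave 116 values, of which 3 moved beyond the counting interval or beyond 1.5 times the count. At a threshold of 1.2-fold, 2 members were past it instead of 0, while 1.5-fold gave 0. With only the 3 members that share their locus with no other annotated gene (CycD, dap and Rbf), the median log2 difference was -0.25 and 2 of the 3 were lower in GFP_Tai, since fewer genes entered. Pseudocounts of 0.1 and 5, no minimum or a minimum FPKM of 5, centring and scaling to protein-coding genes kept the sign of each of the 9 genes. Scaling to ribosomal protein genes turned E2f2 to 0.02 and kept the sign of the other 8. The numbers of members with a counting interval below and above 1 were the same with no length or 50 nt more taken off and with the shortest transcript, the last chosen after seeing the data. They were not recomputed under the other scalings. Scaling to ribosomal protein genes moved the log2 difference of CycD from 0.12 to 0.19 and of Dp from -0.11 to -0.04. The log2 interval of CycD began at -0.02 and that of Dp ended at -0.03, so these 2 calls can change with the scaling. Pseudocounts of 1 and 5, also chosen after seeing the data, kept the change of every partner ratio within its counting interval. The planned search for E2F motif letters in promoters was not run. No paired analysis was possible because each gene has 1 value per genotype. Estimated fragments per member and library ran from 467 for cdc2c to 3046 for E2f, both in GFP_Tai, so the counting interval was widest on the log scale for cdc2c. With 1 value per genotype no difference can be set against the spread between discs.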

Other observations

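Some ratios were computed after the values had been seen and are given as descriptions. The activator E2f over its brake Rbf was 1.24 in GFP and 1.83 in GFP_Tai, a change of 1.48 with a 95% counting interval of 1.35 to 1.62. CycD over CycE was 1.64 and 2.11, a change of 1.28 (1.12 to 1.47). The kinase gene cdc2c over the inhibitor gene dap was 1.12 and 0.964, a change of 0.858 (0.737 to 0.999).

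Over the 2 libraries the likeness of a gene to the G1/S set reduces to 1 number, the distance of its log2 difference from the median of -0.11. Among the genes of the related lists, the nearest were CycT at -0.10 (32.2 and 30.0 FPKM in GFP and GFP_Tai), the insulin receptor gene InR at -0.10 (14.1 and 13.0 FPKM) and the replication polymerase gene DNApol-delta at -0.12 (19.0 and 17.3 FPKM).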
